A study of Mus musculus with 6 samples.

Results

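The genes described here are Nfe2l2, which encodes the transcription factor Nrf2, its inhibitor gene Keap1, and 8 genes commonly used as readouts of Nrf2 activity: Nqo1, Hmox1, Srxn1, Txn1, Txnrd1, Osgin1, Me1 and Ephx1. They were taken by gene name from the annotated expression table, and all 10 were found among its 54433 genes, each once. RNA sequencing of poly(A)-selected RNA was available from 6 libraries of MC3T3-E1, an osteoblast-like mouse cell line. The title of the series speaks instead of osteoblasts of fluoride-tolerant mice, and the sample labels, which name the cell line, were followed here. The 3 WT libraries are the control, wild-type cells kept in DMEM, a standard culture medium. The 3 FR libraries came from cells resistant to 30 ppm fluoride, obtained by continuous culture in a gradient of 10 ppm fluoride until they proliferated normally, and their label names a 30 ppm fluoride gradient as the treatment. Both groups were grown in this medium with fetal bovine serum, penicillin and streptomycin, and the labels name no genetic change in either. The FR cells differ from WT in selection history and in fluoride exposure at once, and these cannot be told apart. The labels do not say how many clones the FR cells came from or whether the libraries of a group were separate cultures, so the p-values rest on library-to-library spread, which may be technical.

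Nrf2 is a transcription factor that switches on genes for detoxifying and antioxidant enzymes. In unstressed cells Keap1 holds Nrf2 in the cytoplasm and presents it to a Cul3 ubiquitin ligase for destruction, and reactive chemicals that modify cysteines of Keap1 let newly made Nrf2 reach the nucleus. There it pairs with a small Maf protein and binds the antioxidant response element in its target genes. Because this control acts largely on protein stability and location, the RNA of Nfe2l2 and Keap1 measures neither the amount of Nrf2 protein nor its binding. In bone-forming cells Nrf2 is known for its part in the defence against oxidative stress.

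Nfe2l2 RNA was lower in FR and Keap1 RNA was not called. The targets split. Nqo1, Osgin1, Ephx1, Me1 and Hmox1 fell, while Txnrd1, Srxn1 and Txn1 rose, Txn1 only to 109% of the WT level. These 3 are thioredoxin and sulfiredoxin genes. A wide list of 26 other genes around the thioredoxin system had 6 rises and 16 falls. It also holds glutaredoxin and sestrin genes, so these counts do not describe thioredoxin genes alone. The changes of the 10 genes ran from a fall to 44.4% of the WT level for Nqo1 to a rise to 165% for Txnrd1. Of the 10 genes, 9 were called at an adjusted p under 0.05 (edgeR quasi-likelihood test, Benjamini-Hochberg adjustment over 14889 tested genes), 6 lower and 3 higher. Calls were common in this comparison: 70.1% of all tested genes were called, 35.5% lower and 34.6% higher. The median log2 fold change was −0.37 over the 10 genes and 0.0029 over all tested genes. Only Nqo1 was called with a fall of at least 2-fold, which 11.4% of all tested genes showed, and none of the 10 rose by that much, which 7.4% of all tested genes did.

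**Figure D1:**
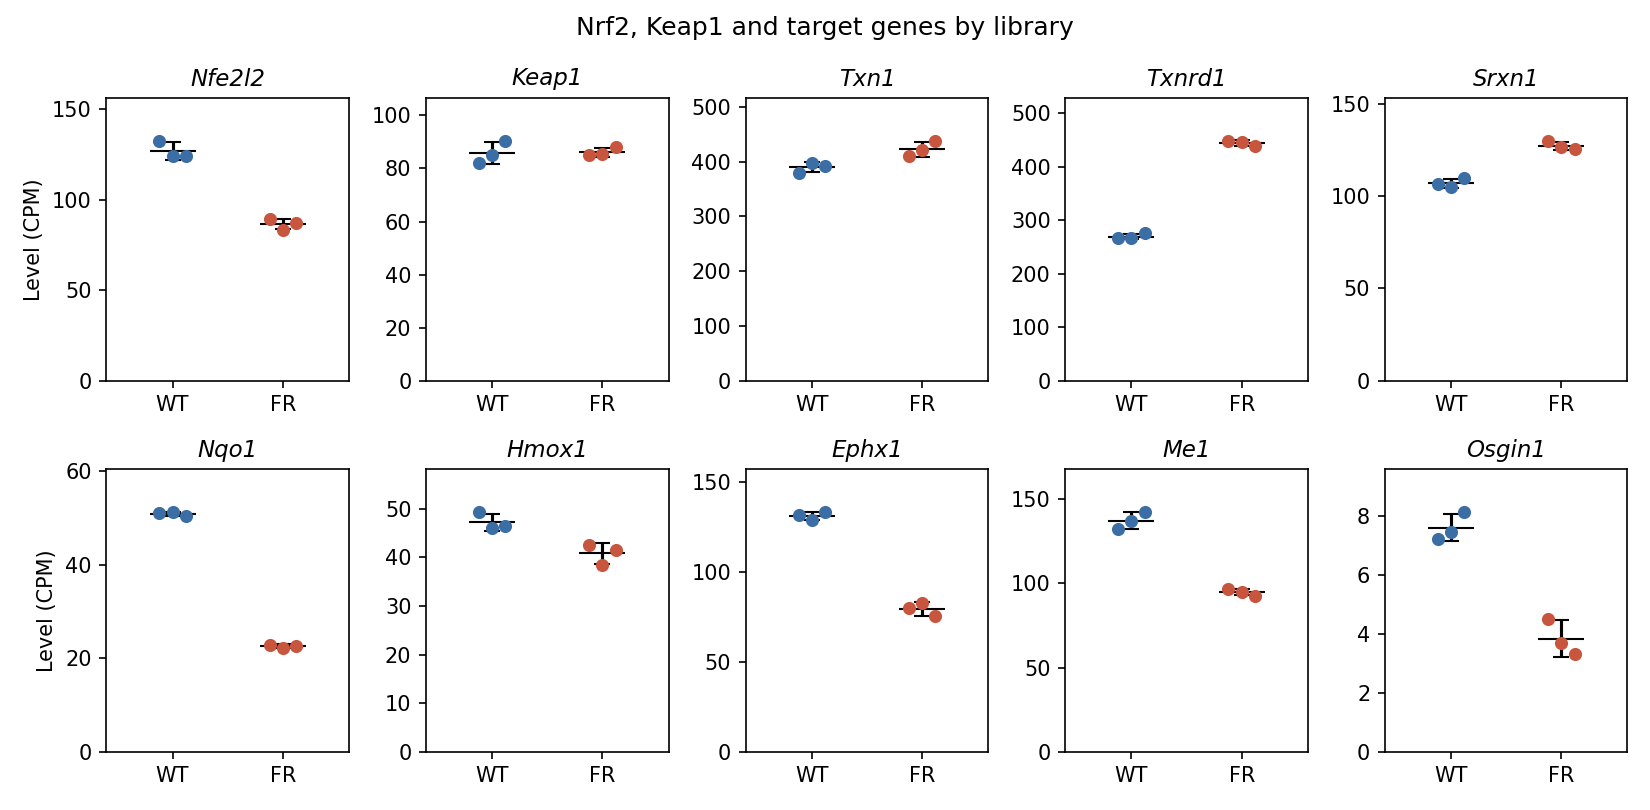
Level of each gene in CPM (counts scaled to library size; linear axes from 0) in the 3 WT and the 3 FR libraries; points are libraries, bars the mean and error bars the SD. The 2 groups lie apart for 9 genes and overlap for Keap1, at 82.0 to 90.3 CPM in WT and 85.0 to 88.1 CPM in FR.

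The antioxidant response element is the sequence that Nrf2 and small Maf proteins bind, and letters of it were looked for near the start sites of these genes. RefSeq promoter windows of 300 bases (250 before to 50 after the annotated start, build GRCm38.p6, while the expression table used GRCm39) were at hand for 9 of the 10 genes, in 12 windows because Me1 and Txnrd1 have several starts. Hmox1 had no entry. The core TGACNNNGC, on either strand, was found in 4 of the 12 windows and in 12.4% of all 32851 windows. The form TGANTCAGC, which also holds the letters of an AP-1 site and overlaps the core in Me1, was found in 3 of the 12 windows and in 1.19% of all windows. At least 1 match to either was found in 5 of the 12 windows and in 13.0% of all windows. The 5 were of different genes, Nfe2l2, Srxn1, Osgin1, Me1 and Txnrd1. A match is a description of letters and does not show binding. The lines that follow give the matches on the gene's own strand, 5′ to 3′, with the matched letters in capitals and up to 20 bases on each side, because genes on both sides of the split carry them.
Srxn1 (chr2:152105459-152105507, plus strand; match at bases −45 to −37 from the start): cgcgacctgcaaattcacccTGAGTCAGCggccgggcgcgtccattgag
Txnrd1, the second of 3 starts (chr10:82859094-82859142, plus strand; match on the opposite strand at bases −92 to −84): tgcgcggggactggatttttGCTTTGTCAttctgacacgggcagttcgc
Osgin1 (chr8:119437028-119437076, plus strand; match on the opposite strand at bases −99 to −91): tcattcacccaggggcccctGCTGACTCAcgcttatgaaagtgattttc
Me1, the first of 2 starts (chr9:86695912-86695940, minus strand; match from base −6 to base 3 of the transcript): cggctcggccgatgccgccgTGACTCAGC
Nfe2l2 (chr2:75704875-75704913, minus strand; match at bases −240 to −232): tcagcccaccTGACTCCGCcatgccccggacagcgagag
Srxn1 and Txnrd1 rose in FR, and Osgin1, Me1 and Nfe2l2 fell, so a match in these windows did not sort the genes by direction. Srxn1 held a further match to the core, from base 29 to base 37 after its start. Neither motif was found in the windows of Nqo1, Keap1, Ephx1 and Txn1, which says only that these letters are not in those windows.

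Nfe2l2 (ENSMUSG00000015839) encodes the regulator of this group. Its level was 132, 124 and 124 CPM in the WT libraries and 89.2, 83.3 and 86.9 CPM in the FR libraries. Every FR library lay below every WT library, and the gap between the groups was wider than the spread within either. The mean fell from 127 ± 4.74 to 86.4 ± 2.98 CPM (SD of 3 libraries), a log2 fold change of −0.55 ± 0.04 SE (edgeR adjusted p = 5.47e-14). The FR level was thus 68.1% of WT, with a 95% interval of 64.7% to 71.7%. Of all tested genes, 19.4% had a lower fold change than Nfe2l2.

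Keap1 (ENSMUSG00000003308), the substrate adaptor that marks Nrf2 for destruction, showed no such gap. It stood at 82.0, 85.0 and 90.3 CPM in WT and at 85.0, 85.4 and 88.1 CPM in FR. The FR libraries lay inside the range of the WT libraries. The log2 fold change was 0.0074 ± 0.04 SE (edgeR adjusted p = 0.871), and its sign turned without WT library 1 (−0.0372), WT library 2 (−0.0133) or FR library 3 (−0.0118), and without a filter on low counts (−0.0163), none of them called. The 95% interval for FR was 95.2% to 106% of the WT level. A gene annotated on the opposite strand, Gm16754, overlaps exons of Keap1. It had 46.9 to 63.4 expected counts (reads per gene as RSEM estimates them) in WT and 45.5 to 62.8 in FR, beside 2190 to 2315 and 1637 to 2138 for Keap1. Since no source used here states a stranded protocol, reads from the overlapping part are uncertain between the 2 genes. The counts of Keap1 had decimals in all 6 libraries, as those of Me1 did, and decimals come from reads that RSEM divides between genes.

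With Nfe2l2 lower and Keap1 near its WT level, their ratio within a library, which needs no scaling between libraries, was compared after division by gene length. Keap1 per Nfe2l2 was 0.710, 0.783 and 0.834 in WT and 1.09, 1.17 and 1.16 in FR. All 3 FR values were above 1 and all 3 WT values below it. That side of 1 rests on the division by length: in CPM alone Nfe2l2 (86.4 ± 2.98) and Keap1 (86.2 ± 1.69) overlapped in FR, while Nfe2l2 was the higher in WT. The mean went from 0.776 ± 0.0624 to 1.14 ± 0.0443 (SD, n = 3 per group). This was among 4 ratios chosen after the values were seen. Each gave an exact two-sided permutation p = 0.1, also 0.1 after Benjamini-Hochberg adjustment over the 4, and 0.1 is the smallest p that 3 against 3 libraries allow.

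Thioredoxin, encoded by Txn1, reduces disulphide bonds in other proteins, and thioredoxin reductase 1, encoded by Txnrd1, is a selenium enzyme that restores it at the expense of NADPH. Txnrd1 (ENSMUSG00000020250) had the largest rise of the 10. It was at 267, 267 and 275 CPM in WT and at 448, 447 and 439 CPM in FR. The 2 groups were far apart and each was tight. The mean rose from 270 ± 4.91 to 445 ± 5.10 CPM (SD of 3 libraries), a log2 fold change of 0.72 ± 0.03 SE (edgeR adjusted p = 3.64e-20), and 11.3% of all tested genes had a higher fold change.

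Txn1 (ENSMUSG00000028367) changed far less. It was at 380, 398 and 391 CPM in WT and at 410, 421 and 437 CPM in FR. The lowest FR library lay just above the highest WT library. The rise was to 109% of WT (log2 fold change 0.12 ± 0.03 SE; edgeR adjusted p = 0.000344; 95% interval 104% to 113%), and 80.7% of all tested genes had a larger change in either direction. The pseudogene Txn-ps1 held 3 to 7 expected counts per library against 7897 to 10539 for Txn1. Txnrd1 per Txn1, per length and within a library, was 0.204, 0.195 and 0.204 in WT and 0.317, 0.308 and 0.291 in FR, so that all 3 FR values lay above WT (exact permutation p = 0.1, as for the other ratios).

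Srxn1 (ENSMUSG00000032802) encodes sulfiredoxin, which repairs over-oxidised peroxiredoxins. Its level was 106, 105 and 110 CPM in WT and 130, 126 and 126 CPM in FR. The groups did not overlap. The rise was to 119% of WT (log2 fold change 0.25 ± 0.03 SE; edgeR adjusted p = 9.82e-08). Set against its regulator, Srxn1 per Nfe2l2 went from 0.744 ± 0.0361 in WT to 1.30 ± 0.0348 in FR (per length, SD, n = 3 per group).

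Nqo1 (ENSMUSG00000003849) encodes the quinone reductase NAD(P)H dehydrogenase, quinone 1, the most widely used marker of Nrf2 activity. It was at 51.2, 51.2 and 50.4 CPM in WT and at 23.0, 22.3 and 22.7 CPM in FR. The spread within each group was small beside the gap. This was the largest fall of the 10 (log2 fold change −1.17 ± 0.05 SE; edgeR adjusted p = 3.00e-18), and 10.1% of all tested genes had a lower fold change. Nqo1 and Txnrd1, both textbook Nrf2 targets, thus moved in opposite directions in the same libraries. Txnrd1 per Nqo1, per length, was 2.23, 2.24 and 2.34 in WT and 8.37, 8.59 and 8.30 in FR.

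Ephx1 (ENSMUSG00000038776) encodes microsomal epoxide hydrolase, which opens reactive epoxides. Its level was 132, 129 and 133 CPM in WT and 80.1, 82.9 and 75.6 CPM in FR. All FR libraries were well below WT. The fall was to 60.5% of WT (log2 fold change −0.72 ± 0.04 SE; edgeR adjusted p = 9.16e-17).

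Me1 (ENSMUSG00000032418) encodes cytosolic malic enzyme, which makes NADPH while turning malate into pyruvate. It was at 132, 137 and 142 CPM in WT and at 96.7, 94.9 and 92.7 CPM in FR. The groups were clearly separated. The fall was to 69.2% of WT (log2 fold change −0.53 ± 0.03 SE; edgeR adjusted p = 4.33e-14). The deposited annotation gives 3 other loci, Gm7049, Gm48795 and Gm7329, the same protein match as Me1, so the split of reads among them is uncertain. Together they had 6.70 ± 0.901 CPM in WT and 15.8 ± 1.09 CPM in FR, opposite in direction to Me1 (Gm7049 log2 fold change 1.08 ± 0.15 SE; Gm48795 1.45 ± 0.13 SE; both called by edgeR). Summed with these loci, Me1 was at 138, 145 and 148 CPM in WT and at 112, 112 and 108 CPM in FR. The groups still did not overlap, and the FR mean was 77.0% of WT in place of 69.2% (log2 fold change −0.38 ± 0.03 SE; edgeR adjusted p = 5.65e-11; a sum chosen after seeing the data). A transcript annotated on the opposite strand of Me1, A330041J22Rik, had at most 9 expected counts in a library.

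Hmox1 (ENSMUSG00000005413) encodes haem oxygenase 1, which breaks haem down to biliverdin, carbon monoxide and iron, and it answers to several stress pathways beside Nrf2. It was at 49.2, 46.0 and 46.4 CPM in WT and at 42.5, 38.4 and 41.5 CPM in FR. The groups did not overlap. The fall was to 86.2% of WT (log2 fold change −0.21 ± 0.05 SE; edgeR adjusted p = 0.000325), and 66.7% of all tested genes changed more.

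Osgin1 (ENSMUSG00000074063), oxidative stress induced growth inhibitor 1, was the least abundant. It had 197, 192 and 208 expected counts in WT and 87, 92 and 70 in FR, which corresponded to 7.22, 7.45 and 8.11 CPM and to 4.52, 3.68 and 3.31 CPM. The groups stood apart despite these low counts. The fall was to 50.3% of WT (log2 fold change −0.99 ± 0.13 SE; edgeR adjusted p = 1.85e-07), and its 95% interval, 41.5% to 60.9%, was the widest among the falls on the log2 scale.

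**Figure D2:**
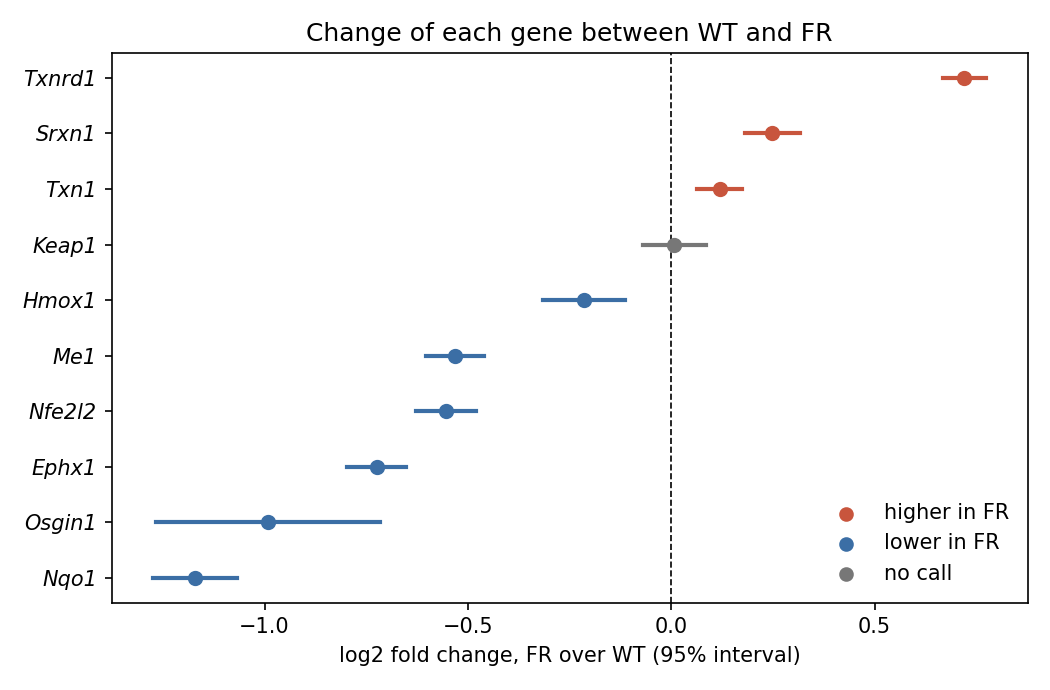
Log2 fold change of each gene, FR over WT, with its 95% interval; the dashed line marks no change and colours mark the edgeR call. The interval of Keap1 crosses 0, 3 genes lie to the right up to 0.72 for Txnrd1, and 6 lie to the left down to −1.17 for Nqo1.

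The WT and FR libraries had separate CPM ranges for 9 of the 10 genes, and for 72.4% of all tested genes. The order of the genes by level was read per length, as CPM divided by the deposited gene length in kilobases. In WT it ran Txn1, Ephx1, Txnrd1, Nfe2l2, Me1, Keap1, Srxn1, Nqo1, Hmox1 and Osgin1, from 371 ± 8.73 to 3.79 ± 0.232 CPM per kb (SD, n = 3). The library ranges of Ephx1 and Txnrd1 overlapped there, as did those of Me1 with Keap1 and of Keap1 with Srxn1, so these neighbours did not differ beyond their spread. In FR the order was Txn1, Txnrd1, Ephx1, Srxn1, Keap1, Nfe2l2, Me1, Hmox1, Nqo1 and Osgin1, from 402 ± 13.1 to 1.91 ± 0.310 CPM per kb. Only Ephx1 and Srxn1 overlapped as neighbours in FR. Srxn1 moved from rank 7 to rank 4, Nfe2l2 from rank 4 to rank 6, and Nqo1 from rank 8 to rank 9. Without division by length Nfe2l2 ranked 5 in both groups, Srxn1 went from rank 6 to rank 3 and Nqo1 again from rank 8 to rank 9. Txnrd1 then ranked 2 in WT, after Txn1, and 1 in FR.

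**Figure D3:**
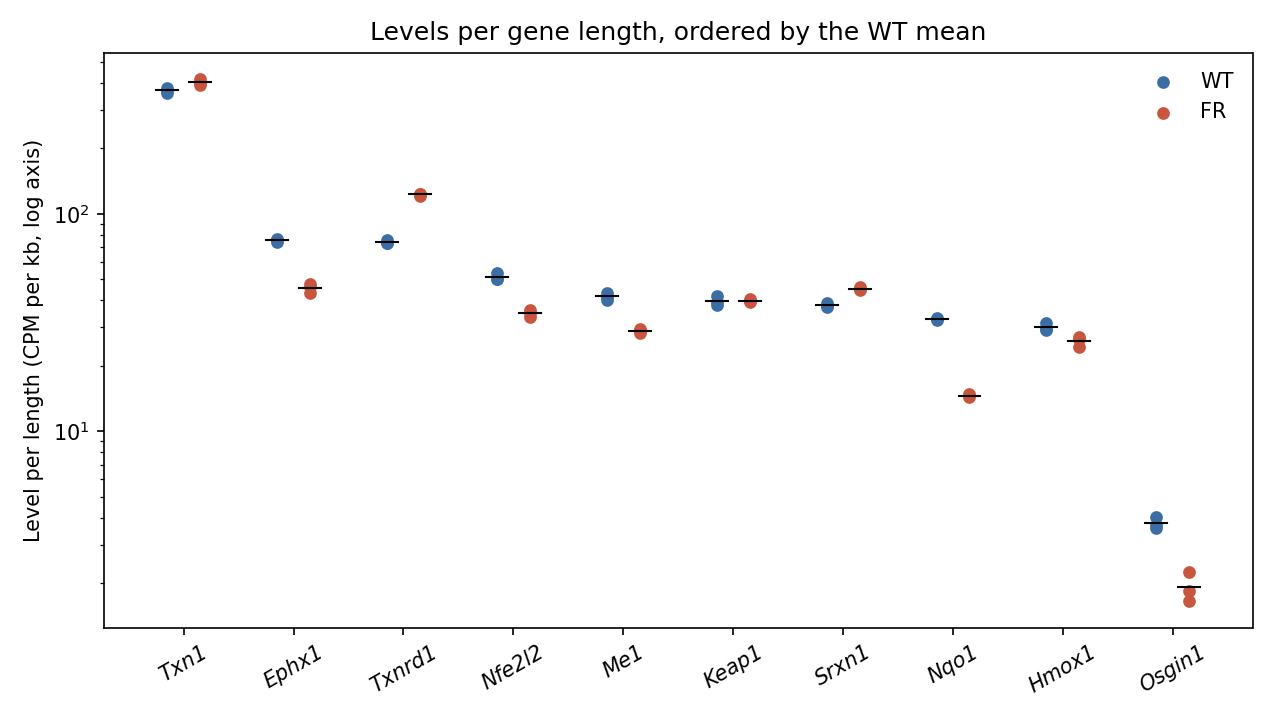
Level of each gene per length (CPM per kb, log axis) in the 3 libraries of each group, ordered by the WT mean; short lines are means. Txn1 is highest in both groups (371 and 402 CPM per kb on average) and Osgin1 lowest (3.79 and 1.91 CPM per kb).

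Of 24 genes for partners of Nrf2 and for its control, 23 were tested, 12 rose, 5 fell and 6 were not called, with a median log2 fold change of 0.07 (edgeR, as above). The called share was 73.9%, near the 70.1% of all tested genes. Btrc, which encodes an F-box protein of a Keap1-independent route of Nrf2 destruction, fell from 47.9 ± 1.97 to 17.3 ± 0.504 CPM. Cdkn1a, whose product p21 can bind Nrf2, fell from 138 ± 3.53 to 81.6 ± 1.82 CPM, and the Nrf2 relative Nfe2l1 from 422 ± 8.06 to 318 ± 2.17 CPM. Bach2, a repressor related to Nrf2, rose from 7.09 ± 0.653 to 18.4 ± 0.482 CPM (SD, n = 3 per group). The following genes of the core complexes were picked after their values were seen. Of the small Maf partners, Mafk rose from 27.5 ± 1.94 to 46.6 ± 1.09 CPM and Maff from 10.3 ± 1.10 to 13.1 ± 0.565 CPM, while Mafg was at 86.5 ± 0.369 CPM in WT and 90.2 ± 1.83 CPM in FR (adjusted p = 0.121). Bach1, which competes with Nrf2 for its binding sites and represses Hmox1, fell from 49.9 ± 2.36 to 38.7 ± 2.47 CPM. Of the ligase that acts with Keap1, Rbx1 rose (log2 fold change 0.31 ± 0.04 SE) and Cul3 was at 129 ± 1.41 CPM in WT and 125 ± 3.70 CPM in FR (adjusted p = 0.160).

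A longer list of other Nrf2 targets held 43 genes of the table, of which 37 were tested. Of these, 23 rose, 11 fell and 3 were not called, with a median log2 fold change of 0.14. The called share was 91.9%, against 70.1% of all tested genes. By at least 2-fold, 5 rose and 6 fell, so the larger changes did not lean upward. Among these rises, Gsta1 and Cbr1 had means under 1 CPM in both groups. Akr1b3, which encodes aldose reductase, rose from 127 ± 4.83 to 435 ± 13.8 CPM. Gsta4, a glutathione transferase that acts on lipid aldehydes, rose from 50.3 ± 0.979 to 116 ± 1.82 CPM, and Tkt, transketolase of the pentose phosphate pathway, from 329 ± 5.14 to 512 ± 6.20 CPM. Adh7, an alcohol dehydrogenase, fell from 62.9 ± 1.04 to 35.2 ± 0.824 CPM (SD, n = 3 per group). Akr1b3 has close paralogues and counts with decimals, and its counts are uncertain to that extent. The following genes of glutathione metabolism and cystine import were picked after their values were seen. Gclc and Gclm, the subunits of the first enzyme of glutathione synthesis, rose by 0.14 ± 0.04 and 0.15 ± 0.04 (log2, SE), as did glutathione reductase Gsr by 0.12 ± 0.04. Slc7a11, the cystine importer, fell from 16.2 ± 1.26 to 4.52 ± 0.276 CPM.

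Of 26 other genes listed with the thioredoxin system, all were tested, 6 rose, 16 fell and 4 were not called (median log2 fold change −0.26). The list was drawn widely and also holds glutaredoxin genes, sestrin genes and Txnl4a, so these counts do not describe thioredoxin genes alone. Its called share was 84.6%, against 70.1% of all tested genes. Sesn3, a sestrin, fell from 145 ± 4.15 to 46.6 ± 1.39 CPM. Prdx4, the peroxiredoxin of the endoplasmic reticulum, fell from 122 ± 0.510 to 57.9 ± 2.75 CPM, and Msrb3, a methionine sulphoxide reductase, from 183 ± 0.597 to 112 ± 0.672 CPM. Prdx1, a cytosolic peroxiredoxin that sulfiredoxin repairs and that also stands in the target list, rose from 561 ± 4.44 to 764 ± 13.5 CPM (SD, n = 3 per group). The relatives of the thioredoxin genes described above were picked after their values were seen. Mitochondrial Txnrd2 rose from 12.6 ± 0.551 to 21.3 ± 2.07 CPM, Txnrd3 was at 15.6 ± 1.24 CPM in WT and 16.0 ± 0.537 CPM in FR (adjusted p = 0.731), and mitochondrial Txn2 was at 99.0 ± 1.14 and 101 ± 1.82 CPM (adjusted p = 0.345). Txnip, which encodes an inhibitor of thioredoxin, rose from 64.4 ± 4.23 to 105 ± 3.80 CPM.

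Of 16 further genes for quinone, haem and epoxide enzymes, 14 were tested, 4 rose, 7 fell and 3 were not called (median log2 fold change −0.16). Called were 78.6%, against 70.1% of all tested genes. Among the rises, Cbr1 had means under 1 CPM in both groups, and its library ranges overlapped (edgeR adjusted p = 0.0417). Under the alternative processings 3 to 5 genes of this list rose. The cytochrome b5 reductase genes Cyb5r3 and Cyb5r1 fell by 0.38 ± 0.03 and 0.38 ± 0.04 (log2, SE), and Alas1, the first enzyme of haem synthesis, rose from 12.6 ± 0.0554 to 21.8 ± 1.16 CPM. Relatives and partners of Nqo1, Hmox1 and Ephx1 were picked after their values were seen. Nqo2 fell (−0.40 ± 0.08 SE) and so did Ephx2, a soluble epoxide hydrolase, from 3.57 ± 0.0798 to 1.33 ± 0.203 CPM. Hmox2, the constitutive haem oxygenase, rose from 49.3 ± 1.68 to 55.7 ± 1.75 CPM (log2 fold change 0.17 ± 0.04 SE), opposite to Hmox1. The biliverdin reductase genes moved apart, with Blvra at −0.32 ± 0.07 and Blvrb at 0.41 ± 0.05 (log2, SE), both called.

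Of 15 genes for malic enzymes and NADPH supply, 14 were tested, 8 rose, 5 fell and 1 was not called (median log2 fold change 0.19). Called were 92.9%, against 70.1% of all tested genes. Nadk2, the mitochondrial NAD kinase, rose from 67.5 ± 3.07 to 202 ± 2.60 CPM and Idh2, mitochondrial isocitrate dehydrogenase, from 204 ± 0.629 to 267 ± 5.98 CPM. Aldh1l2, a mitochondrial folate enzyme, fell from 274 ± 5.50 to 194 ± 7.90 CPM (SD, n = 3 per group). Me2, the mitochondrial malic enzyme that uses NAD, was picked after its values were seen and rose from 85.6 ± 1.15 to 108 ± 1.42 CPM, opposite to Me1. Me3, the other mitochondrial malic enzyme, also picked after its values were seen, fell from 0.903 ± 0.0918 to 0.265 ± 0.241 CPM (edgeR adjusted p = 0.00147). Some genes stand in more than 1 of these lists, among them Prdx1, G6pdx and Idh1.

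**Figure D4:**
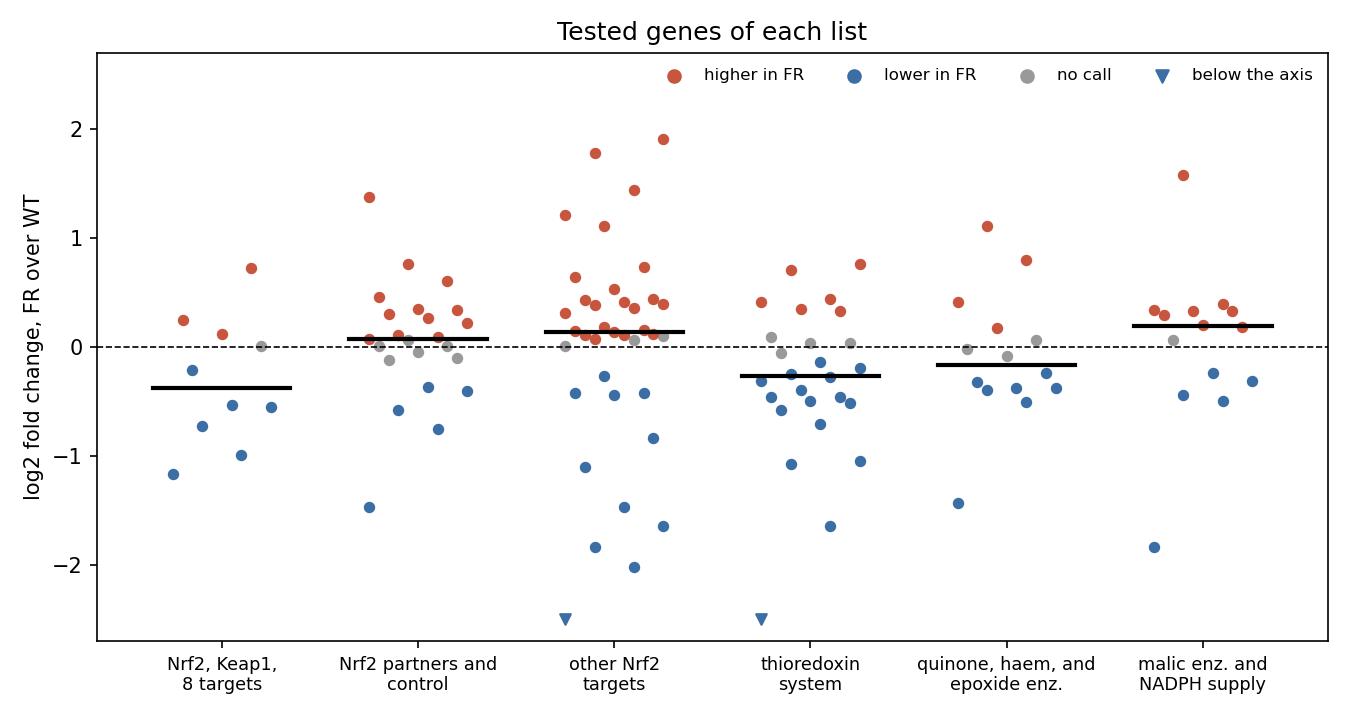
Log2 fold change, FR over WT, of the tested genes of each list; points are genes coloured by the edgeR call, black lines are list medians, and triangles mark 2 genes below the axis, Ces1g among other Nrf2 targets and Msrb2 in the thioredoxin system. The medians run from −0.37 for Nrf2, Keap1 and the 8 targets to 0.19 for malic enzymes and NADPH supply, with genes on both sides of 0 in every list.

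Biological process terms in the deposited annotation, which the choice by gene name did not use, joined some of the genes. Oxidation-reduction process was carried by the most, Hmox1, Me1, Srxn1, Txn1 and Txnrd1. Of 370 tested genes with it, 139 rose and 152 fell (median log2 fold change −0.02). Response to drug was carried by Hmox1, Nqo1 and Txn1, and of 213 tested genes with it 71 rose and 92 fell (median −0.07). Response to oxidative stress was carried by Hmox1, Nqo1, Srxn1 and Txnrd1, which went in both directions. Of 158 tested genes with this term, 65 rose and 40 fell (median log2 fold change 0.20). Cellular response to oxidative stress, a separate term, was carried by Nfe2l2, Keap1 and Srxn1, and of 52 tested genes with it 16 rose and 26 fell (median −0.09). Cell redox homeostasis was carried by Nqo1, Txn1 and Txnrd1, and of 50 tested genes with it 19 rose and 23 fell (median −0.04). For comparison, 34.6% of all tested genes rose and 35.5% fell. The genes whose CPM followed Nfe2l2 most closely over the 6 libraries were Cnep1r1, Lpin2 and Hmgn3 (Pearson r = 0.999 for each, on log2 CPM). Such values are common here, since 2343 of 10034 genes compared had r above 0.95 with Nfe2l2, and the 6 libraries form 2 groups that differ in most genes.

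The 6 libraries held between 19246119 and 27140662 expected counts, so that 3 counts in a library equalled 0.110 to 0.156 CPM; this covers counting error only. The osteoblast label was checked against 14 markers. Of the 9 that could be tested, all fell, 7 of them by at least 2-fold, with a median log2 fold change of −1.58. Among all tested genes 35.5% fell, and 11.4% fell by at least 2-fold. The level of Col1a1, a collagen gene of bone matrix, fell from 5055 ± 95.6 to 635 ± 9.34 CPM, that of Sparc, osteonectin, from 1655 ± 13.6 to 685 ± 9.04 CPM, and that of Runx2, an osteoblast transcription factor, from 69.8 ± 1.10 to 57.2 ± 0.694 CPM. In both groups Sp7, Alpl, Bglap and Ibsp were at 8 counts or fewer in each library. Other markers of the list were counted at low levels, and these fell too. Dmp1 went from 7.63 ± 0.768 to 0.572 ± 0.253 CPM and Phex from 7.14 ± 0.0658 to 3.84 ± 0.493 CPM. Among markers of other cell types, the 8 macrophage and blood markers summed to 18.9 to 21.1 CPM in WT and 20.6 to 25.8 CPM in FR, and of 4 tested 2 rose and 1 fell. The 2 that rose were Csf1r (0.587 ± 0.200 to 7.14 ± 0.658 CPM) and Cd68 (0.467 ± 0.237 to 2.26 ± 0.121 CPM). The 1 that fell did so by at least 2-fold, so the sums hide changes in both directions. Hbb-bs had no count and Adgre1 and Itgam had at most 1. The 6 muscle markers summed to 2.15 to 2.17 CPM in WT and 6.75 to 7.39 CPM in FR, with Myod1 at 0, and this came mainly from Des. The 6 cartilage markers summed to 70.9 to 73.9 CPM in WT and 48.4 to 51.5 CPM in FR, nearly all of it Sox9, with Acan and Col9a1 at 0. The endothelial, epithelial and adipocyte lists each summed to at most 4.83 CPM in any library. Whether these shifts had a part in the values of the Nrf2 genes was not tested, and in bulk RNA a change in the share of cells and a change in RNA per cell cannot be told apart.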

How the data were processed

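Expected counts, as deposited by the authors in 1 table, cover 3 WT and 3 FR libraries and are not scaled to depth. Per the submitters' processing notes it was made with fastp, HISAT and RSEM on GRCm39, and versions are not given in the sources used here. The deposited table also holds group means of expected counts, not used as values, and a gene length (another, unscaled column of the authors). The counts were rounded. Genes were filtered with filterByExpr, scaled with TMM factors and tested with the robust quasi-likelihood test of edgeR 4.0.16 in R 4.3.3, FR against WT, with Benjamini-Hochberg adjustment over 14889 genes and a threshold of 0.05. Assembled loci without a name (733 rows, 1.16% of counts) were kept, and leaving them out was tried, an alternative chosen after seeing the data. CPM use the TMM factors. Intervals are 95% from the fit. Other tools tried were DESeq2 1.42.0 and limma 3.58.1 (voom), with other scalings and filters, the replicate number as a block, and each library left out. On simulated counts for this comparison (14497 genes) edgeR called 68% of genes changed 1.2-fold and 98% of those changed 1.5-fold. The simulation gave every gene the same spread and changed 50 well-counted genes at each fold. In the data 70.1% of tested genes were called and spread differs by gene, so these shares need not hold there.

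The genes and lists were chosen with earlier results of these data known. Named are all 10 genes, and of each list other than the marker lists the 3 smallest adjusted p-values. Where these share a direction, the smallest in the other was added. The cell type markers were not named by this rule. Genes likest Nfe2l2 were sought among those with at least 5 CPM and a proper symbol. Promoter windows are RefSeq's. Overlapping genes were read from GENCODE M21 (GRCm38), and copies were rows with a gene's SwissProt match in the deposited annotation, a sum tried after seeing the data. Of the listed genes 1 was not matched in the table. Within groups, the chi-square per degree of freedom between libraries was 2.34 to 3.37, above sampling noise, so no library's counts repeat another's. It cannot show whether the libraries of a group were separate cultures, since library preparation also adds spread.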

Additional observations from a re-analysis of the deposited data

How the results depend on the processing

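The 10 genes gave the same calls, 3 higher and 6 lower, under all 15 alternatives that refit the whole table. The counts over all genes and over the 5 other lists stayed within 1.5 times their values under each of them, between 4635 and 5157 genes higher and between 4883 and 5831 lower. The 9 called genes kept their direction and call throughout, with the highest adjusted p at 0.0130 for Txn1. The log2 fold change of Keap1, not called under any alternative (adjusted p 0.343 to 0.947), was −0.0163 without a filter on low counts and ranged from −0.0372 to 0.0431 with 1 library left out. It was below 0 without WT replicate 1 (−0.0372), WT replicate 2 (−0.0133) or FR replicate 3 (−0.0118). Same-numbered libraries did not deviate together (correlations −0.0166, −0.00390 and −0.0280 across genes), so the numbers were not taken as pairs. With the replicate number as a block 5070 genes were higher and 5222 lower, and the 10 genes gave 3 and 6. No scaling moved the median of all genes by more than 0.1 (log2). Depth limits Osgin1 most, with 70 to 208 counts per library.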
